A study of Mus musculus with 24 samples.

Results

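H3K4me1 is monomethylation of lysine 4 of histone H3, a mark of enhancers and of the flanks of promoters. It was profiled by CUT&RUN, in which an antibody-tethered nuclease cuts out marked chromatin for sequencing, in embryoid bodies (EB) at day 6 of differentiation. EB are aggregates in which mouse embryonic stem (ES) cells leave pluripotency and form cells of all germ layers. The groups were Prdm16 KO EB and wild-type EB, both derived from ES cells of C57BL/6 background, with 2 libraries each. PRDM16 belongs to the PR domain family of zinc finger factors and is known for its part in brown fat, blood stem cells and neural progenitors. The labels name neither the KO allele nor how many clones were used, and do not say whether the 2 libraries of a genotype are separate cultures, so their spread may be technical. The members are the 4 H3K4me1 EB peak lists, chosen by their titles. They hold 42275 of the 273503 peaks of the 24 libraries in the series, and overlapping or abutting peaks on chromosomes 1 to 19, X and Y merged into 24731 regions. A region with a peak in both KO lists and in neither wild-type list is called KO-only, and the reverse wild-type-only.

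Enhancers gain H3K4me1 from the MLL3 and MLL4 methyltransferases when pioneer and lineage factors bind, often before the gene is transcribed, and many lose it again as cells differentiate. H3K4me2 overlaps it at enhancers and is also found at promoters. In ES cell differentiation, H3K4me1 therefore records both enhancers still held from pluripotency and those opened for germ layer genes. A peak list records where a caller found enrichment, so a missing peak is not read here as a missing mark.

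The changed regions include annotated starts of developmental genes. Shown here are 7 promoter windows that lay wholly inside a changed region, from 250 bases before to 50 bases after a RefSeq transcript start (GRCm38.p6), 5′ to 3′ on the gene's strand, with each CG dinucleotide in capitals. The first 3 lay in KO-only regions: Pou5f1, the pluripotency factor, and Kcna5 and Orai2, which encode a potassium channel and a store-operated calcium channel subunit and were among the strongest KO-only regions at gene ends. The other 4 lay in wild-type-only regions: the Wnt ligand gene Wnt3a, the neuronal tubulin gene Tubb3, the Hes family gene Hes6 and an internal start of Map4, a microtubule-binding protein.
Pou5f1 (chr17:35505782-35506081, + strand): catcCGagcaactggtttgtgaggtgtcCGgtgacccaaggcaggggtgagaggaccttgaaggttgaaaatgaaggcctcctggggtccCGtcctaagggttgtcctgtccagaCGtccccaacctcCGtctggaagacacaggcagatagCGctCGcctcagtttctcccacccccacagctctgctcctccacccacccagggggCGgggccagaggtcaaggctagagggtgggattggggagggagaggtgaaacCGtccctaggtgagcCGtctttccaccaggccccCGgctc
Kcna5 (chr6:126535506-126535805, - strand): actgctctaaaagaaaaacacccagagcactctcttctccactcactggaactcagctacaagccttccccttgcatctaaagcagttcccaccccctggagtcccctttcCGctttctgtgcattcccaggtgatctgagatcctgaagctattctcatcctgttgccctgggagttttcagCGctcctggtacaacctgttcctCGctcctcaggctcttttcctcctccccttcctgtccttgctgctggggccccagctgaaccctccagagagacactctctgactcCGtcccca
Orai2 (chr5:136170607-136170906, - strand): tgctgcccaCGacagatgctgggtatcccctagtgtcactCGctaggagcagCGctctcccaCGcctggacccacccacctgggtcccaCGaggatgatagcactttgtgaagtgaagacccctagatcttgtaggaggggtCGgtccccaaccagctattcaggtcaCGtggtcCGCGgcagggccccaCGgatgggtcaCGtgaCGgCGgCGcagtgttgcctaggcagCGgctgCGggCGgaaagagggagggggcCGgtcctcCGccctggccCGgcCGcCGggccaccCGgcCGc
Wnt3a (chr11:59290702-59291001, - strand): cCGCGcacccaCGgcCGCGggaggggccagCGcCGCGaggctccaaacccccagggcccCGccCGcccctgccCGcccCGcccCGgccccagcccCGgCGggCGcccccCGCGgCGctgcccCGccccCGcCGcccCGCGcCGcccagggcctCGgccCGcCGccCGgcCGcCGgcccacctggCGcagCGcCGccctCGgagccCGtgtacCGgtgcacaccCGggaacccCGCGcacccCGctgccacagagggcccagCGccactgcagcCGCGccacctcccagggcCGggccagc
Tubb3 (chr8:123411303-123411602, + strand): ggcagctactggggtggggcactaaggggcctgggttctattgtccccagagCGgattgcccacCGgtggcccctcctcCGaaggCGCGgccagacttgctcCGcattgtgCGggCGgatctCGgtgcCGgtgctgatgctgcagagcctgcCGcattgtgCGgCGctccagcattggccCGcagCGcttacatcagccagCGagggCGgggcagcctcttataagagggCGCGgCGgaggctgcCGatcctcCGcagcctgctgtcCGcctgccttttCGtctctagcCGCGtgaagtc
Hes6 (chr1:91413989-91414288, - strand): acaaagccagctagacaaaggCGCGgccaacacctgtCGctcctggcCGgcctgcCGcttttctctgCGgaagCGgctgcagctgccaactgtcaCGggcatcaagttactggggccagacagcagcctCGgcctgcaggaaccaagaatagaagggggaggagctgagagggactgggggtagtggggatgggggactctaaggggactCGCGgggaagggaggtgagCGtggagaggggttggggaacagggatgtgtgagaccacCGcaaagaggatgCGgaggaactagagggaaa
Map4 (chr9:110051771-110052070, + strand): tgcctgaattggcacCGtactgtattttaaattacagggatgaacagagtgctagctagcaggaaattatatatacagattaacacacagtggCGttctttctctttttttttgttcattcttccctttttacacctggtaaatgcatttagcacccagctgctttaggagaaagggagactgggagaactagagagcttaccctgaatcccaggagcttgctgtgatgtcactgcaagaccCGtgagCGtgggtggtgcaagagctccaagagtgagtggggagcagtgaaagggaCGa
These windows run from 4 CG dinucleotides at Kcna5 to 45 at Wnt3a, and their GC content runs from 46% at Map4 to 86.3% at Wnt3a.

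The KO lists were shorter than the wild-type lists. KO EB gave 8943 and 5990 H3K4me1 peaks, against 14082 and 13260 in wild-type EB, so the groups did not overlap. The difference was -0.90 on the log2 scale, KO minus wild type, and with 6 ways to assign the libraries a two-sided exact permutation test gave p = 0.333, the smallest possible. The KO lists covered 17.5 and 13.1 Mb, against 31.3 and 26.2 Mb in wild type. Each peak carries a score, which is the authors' own value, starts at 50 in every list and has no stated unit. It serves below to order peaks within a list, and levels are not compared between lists. Median peak width overlapped between the groups, at 1533 and 1790 bp in KO, against 1803 and 1515 bp in wild type. Depth is unknown, since read totals were not analysed here.

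In ES cells the genotypes overlapped in H3K4me1 peak number. There were 14945 and 13901 peaks in the KO, against 15435 and 12746 in wild type, a log2 difference of 0.04. The KO effect in EB minus that in ES cells was -0.94 on the log2 scale (two-sided exact permutation of genotype within stage, 36 assignments, p = 0.167). For base pairs covered it was -1.01, with p = 0.0556, the smallest that this permutation test can give. Neither difference passed a threshold of 0.05.

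KO-only regions numbered 609 (2.46% of the 24731 regions) and wild-type-only regions 3520 (14.2%). The other choices of 2 lists, each with 1 library of each genotype, gave 301 to 710 regions. The wild-type-only count lay far above that range, and the KO-only count lay inside it. A further 1832 regions had a peak in all 4 lists, and 14001 had a peak in 1 list. KO 2 had the shortest list. Of its peaks, 51.3% overlapped a KO 1 peak, 53.9% a wild type 1 peak and 51.8% a wild type 2 peak. Of wild type 1 peaks, 53.1% overlapped a wild type 2 peak, 30.5% a KO 1 peak and 22.9% a KO 2 peak. A longer list can overlap more peaks by its length, so these shares do not rank the lists by likeness. With 1 list left out, a class rests on fewer lists and its count grows. KO-only and wild-type-only regions then numbered 2146 and 4923 without KO 1, 3624 and 4204 without KO 2, 960 and 8043 without wild type 1, and 911 and 8724 without wild type 2. The excess of wild-type-only regions was therefore smallest without KO 2.

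Because a longer list fills more regions, the lists were also cut to their 5990 highest-scoring peaks. The lowest score kept was then 60.3 in KO 1 and 50 in KO 2, and 80.7 in wild type 1 and 77.2 in wild type 2. Of the 14400 regions merged from these lists, 868 were KO-only (6.03%) and 1193 were wild-type-only (8.28%), while the other choices gave 282 to 348. Both genotype-matched pairs of lists then stood above all 4 mixed pairs. The 868 can include regions whose wild-type peak scored below the cut. For the KO pair the result depended on the cut. At a score of 100 or more, its 79 regions lay inside the mixed range of 44 to 149. In the higher-scoring 50% of each list, its 347 lay just above the mixed range of 177 to 342. The wild-type-only count was 1.37 times the KO-only count, and 5.78 times with all peaks. Of the 609 KO-only regions, 448 (73.6%) were also KO-only with equal list lengths. Of the 3520 wild-type-only regions, 1035 (29.4%) were also wild-type-only.

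**Figure D1:**
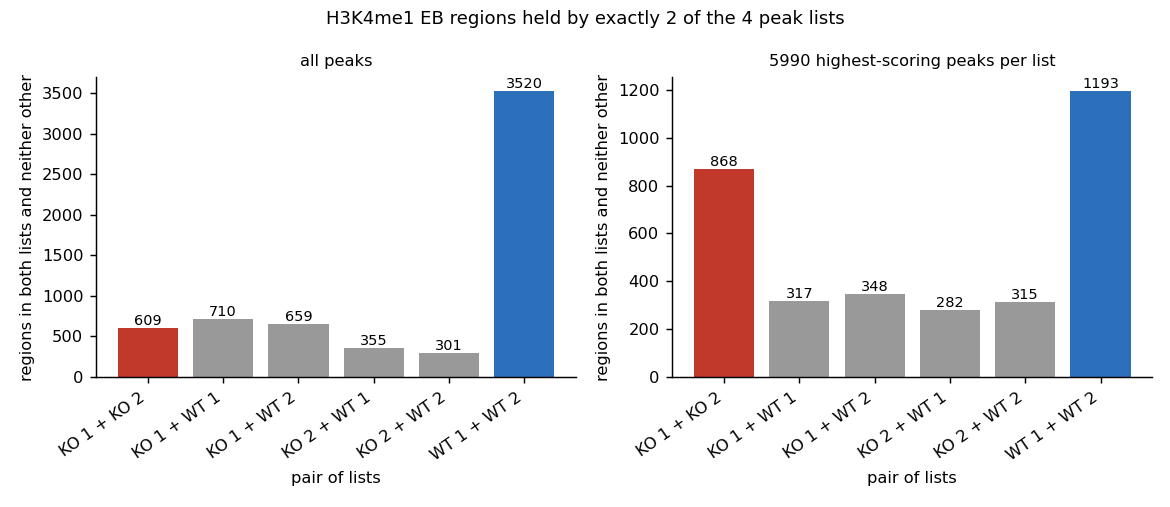
Number of H3K4me1 EB regions (vertical axis) found in exactly the 2 lists named below each bar, with all peaks at left and the 5990 highest-scoring peaks of each list at right. The KO pair (red) gives 609 and 868 regions and the wild-type pair (blue) 3520 and 1193, against 301 to 710 and 282 to 348 for the mixed pairs (grey).

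Changed regions were narrower than shared ones. The median merged width was 2386 bp for KO-only regions (quartiles 1657 and 3516 bp) and 2278 bp for wild-type-only regions (quartiles 1582 and 3361 bp), against 3883 bp for regions in all 4 lists. Merging widens a region with each list it holds, but the single peaks were narrower too. KO-only regions had median peaks of 1724 and 2010 bp in the KO lists, where regions in all 4 lists had 2201 and 2528 bp. Wild-type-only regions had median peaks of 1964 and 1478 bp in the wild-type lists, where regions in all 4 lists had 3165 and 2563 bp. The score ranks of the changed regions, given as the share of a list's peaks with a lower score, lay near the middle of their lists. Their medians were 52.1% and 48.4% for KO-only regions in the KO lists, and 56.5% and 54.5% for wild-type-only regions in the wild-type lists. Regions in all 4 lists ranked at medians of 78.6% and 69.7% in the KO lists and 79.7% and 81.1% in the wild-type lists.

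Changed regions made up a smaller share of strong than of weak regions, ordered here by the mean score rank over both lists of a genotype. Of the regions in both KO lists, 33.6% (95% Wilson interval 30 to 37.4%) were KO-only in the weakest of 5 equal groups and 6.3% (4.64 to 8.5%) in the strongest. Of the regions in both wild-type lists, 65.7% (63.3 to 68.1%) were wild-type-only in the weakest of 5 equal groups and 25.5% (23.4 to 27.8%) in the strongest. Strong regions were thus changed less often than weak ones within each genotype. By merged width, shares ran from 43.6% KO-only in the narrowest of 5 groups to 8.08% in the widest, and from 76.7% to 25.1% wild-type-only. A peak of the other genotype widens a merged region, so this order is partly built into the classes and adds no separate evidence. The Wilson intervals cover counting error over regions only and carry no spread between libraries.

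**Figure D2:**
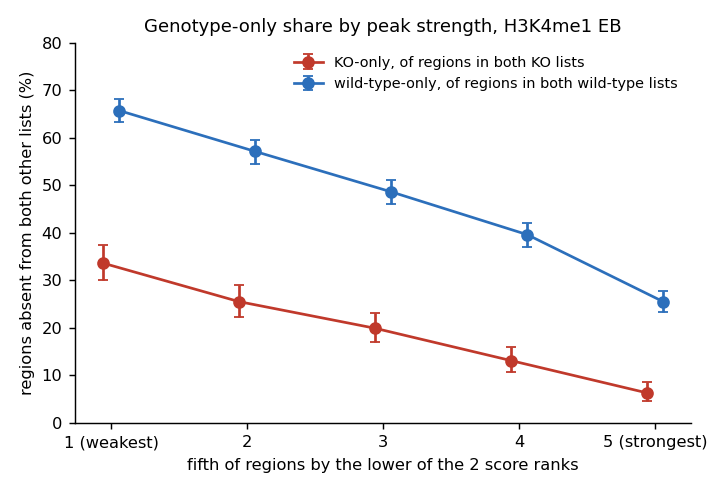
Percentage of regions absent from both lists of the other genotype (vertical axis) in 5 equal groups of regions by the mean of their 2 score ranks (horizontal axis), with 95% Wilson intervals. The printed axis label names the lower rank, but the mean was used. KO-only shares (red) run from 33.6% to 6.3% and wild-type-only shares (blue) from 65.7% to 25.5%, from weakest to strongest.

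Most changed regions lay away from gene ends. Within 2500 bp of an end of a protein-coding gene lay 134 KO-only regions (22%, interval 18.9 to 25.5%) and 801 wild-type-only regions (22.8%, 21.4 to 24.2%), close to the 24.3% of all regions and below the 28.1% of regions in all 4 lists. Inside a gene but away from its ends lay 42.7% of KO-only and 40.7% of wild-type-only regions, and 35.3% and 36.5% lay between genes. The classes differed in distance. The median distance to the nearest gene end was 16.1 kb for KO-only and 25.2 kb for wild-type-only regions, against 19.4 kb for all regions. Regions more than 50 kb from a gene end made up 23.3% of KO-only and 34.8% of wild-type-only regions, against 29.5% of all regions. Some changed regions lay beside a peak of the other genotype. A wild-type peak lay within 1000 bp of 16 KO-only regions (2.63%), within 5000 bp of 12% and within 10000 bp of 28.1%. A KO peak lay within 1000 bp of 41 wild-type-only regions (1.16%), within 5000 bp of 5.68% and within 10000 bp of 14.7%. The wild-type lists hold more peaks that can lie near.

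Chromosome 8, chosen after the values were seen, held a larger share of KO-only than of wild-type-only regions. It held 65 of 609 KO-only regions (10.7%, interval 8.46 to 13.4%), 164 of 3520 wild-type-only regions (4.66%) and 5.66% of all regions. Of all H3K4me1 EB peaks it held 6.92% and 6.19% in KO, against 5.29% and 5.16% in wild type. The groups did not overlap, with a log2 difference of 0.33, while the other autosomes differed by between -0.18 and 0.13 and X by -0.23. A higher share in both KO lists was found for 7 of 21 chromosomes (33.3%), chromosome Y with its 1 to 3 peaks per list among them, and a lower share in both for 6 (28.6%). In the lists of equal length, chromosome 8 held 9.22% of KO-only and 3.86% of wild-type-only regions. Its share of KO-only regions was 7.18% without KO 1 and 7.89% without KO 2. The KO-only regions were spread over the chromosome, with 5 to 19 in each stretch of 20 Mb. Neither H3K4me2 in EB, with shares of 5% and 4.66% in KO, against 4.94% and 4.96% in wild type, nor the ES lists showed a gap of that size. H3K4me1 in ES cells had 6.09% and 5.93% in KO, against 5.9% and 5.46% in wild type.

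**Figure D3:**
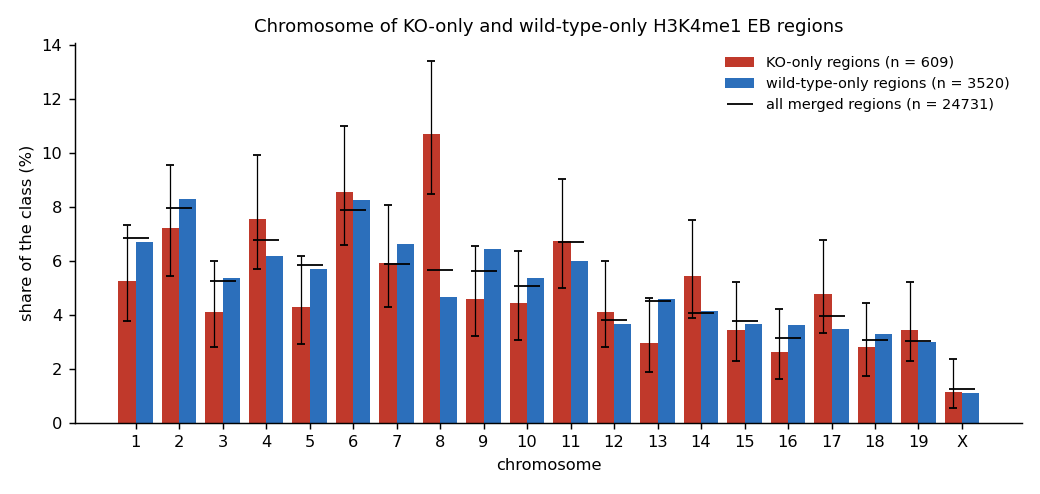
Share of each class (vertical axis, %) on each chromosome (horizontal axis) for KO-only regions (red, with 95% Wilson intervals) and wild-type-only regions (blue), with the share of all merged regions as black bars. Chromosome 8 holds 10.7% of KO-only and 4.66% of wild-type-only regions, against 5.66% of all regions.

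Among the strongest KO-only regions at gene ends, ordered by the lower of the 2 score ranks, the stress-induced transcription factor gene Atf3 had scores of 125 and 166 in KO 1 and KO 2 and no wild-type peak (chr1:191177493-191181973). Ccng2, an atypical cyclin gene of cell cycle arrest, had 166 and 102 (chr5:93262139-93266796). Vrk1, a chromatin kinase gene, had 101 and 96 (chr12:106080779-106082892). Kcna5 had 121 and 97.8 and Orai2 had 99.7 and 128, at the promoters printed above. Each of these 5 regions had no H3K4me1 peak in either wild-type list. The other 5 of the 10 strongest lay at Gm51999, Frmd8, Tuft1, Rasgef1c and Fam210b. All 10 were also KO-only with equal list lengths, but their choice by high rank fixed this. Cutting a list removes only its lowest-scoring peaks, so it can neither drop these KO peaks nor add a wild-type peak. H3K4me2 differed among the 10 regions: Kcna5, Orai2 and Fam210b had an H3K4me2 peak in all 4 EB lists, and Atf3, Frmd8, Tuft1 and Vrk1 had one in none.

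Away from gene ends, the strongest KO-only region lay inside Arhgap31, a GTPase-activating protein gene, with scores of 168 and 133 (chr16:38651996-38655146). A region 66158 bp from Hs1bp3 had 152 and 221 (chr12:8409983-8411506). Regions inside Ghr, the growth hormone receptor gene, and Tle4, a Groucho co-repressor gene, had 139 and 128 and 127 and 124 in KO 1 and KO 2. The other regions lay outside genes, nearest to Cfap20, N4bp1, Marcks and Zfp462, and inside Capzb and Mpped2. The regions near Cfap20 and N4bp1 both lay on chromosome 8. An ES H3K4me1 peak was found in all 4 ES lists for Arhgap31 and in 1 for Capzb, and in none for the other 8.

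The 10 strongest wild-type-only regions at gene ends, by the same order, began with Arhgef11 and Hes3. Arhgef11, a guanine nucleotide exchange factor gene, had 200 and 209 in wild type 1 and wild type 2 and no KO peak (chr3:87617971-87621565). A region spanning an end of Hes3, a Hes family repressor of neural progenitors, and of Icmt had 256 and 200 (chr4:152289597-152295045). Bcl9, a beta-catenin co-activator of Wnt signalling, had 178 and 231 (chr3:97198191-97202123). None of these regions had a KO peak. Zbtb16, the zinc finger gene PLZF, had 154 and 149, and Adcyap1, encoding the neuropeptide PACAP, had 148 and 146. The others were Zp2, Adtrp, Wipf3, Trmt9b and the shared end of Cyp24a1 and Pfdn4. All 10 were also wild-type-only with equal list lengths, which again followed from their choice by high rank.

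Away from gene ends, several of the strongest wild-type-only regions lay in or nearest to genes of neurons. A region 15967 bp from Chrnb4, a nicotinic acetylcholine receptor subunit gene, had 271 and 234 (chr9:55064921-55069522). A region inside Adgrl3, encoding the synaptic adhesion receptor latrophilin 3, had 280 and 229 (chr5:81621737-81624787). Regions 70079 bp from Nxph1, a neurexin ligand gene, and 65203 bp from Grin2b, an NMDA receptor subunit gene, had 260 and 206 and 207 and 204 in wild type 1 and wild type 2. Of the other 6, 3 lay inside Pepd, Klhl7 and Arl13b, a cilium GTPase gene, and 3 lay far from any gene, 122885 bp from 4930544G11Rik, 374703 bp from Tbc1d22a and 319502 bp from Mpdz. Of the 10, 9 had no H3K4me1 peak in any ES list, and Klhl7 had one in 1 KO and 1 wild-type ES list. No test of neuronal genes as a group was made, and nearest genes need not be the targets.

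The genes with the most wild-type-only regions were long, from 348 to 1105.9 kb. Dennd1a, of 488 kb, held 7 wild-type-only regions and no KO-only one, and Sdk1, a synaptic adhesion gene of 974 kb, held 6 and 1. Ctnna2, Ntm, Exoc4, Cdkal1 and Pdzd2 held 5 wild-type-only regions each, and Astn2, Auts2 and Bach2, the first in alphabetical order among equals, held 4. Ctnna2, Ntm, Astn2 and Auts2 act in neuronal migration or adhesion, and Bach2 is a lymphoid transcription factor gene. The H3K4me1 regions of any class in these genes ran from 9 in Ctnna2 and 10 in Cdkal1 to 23 in Dennd1a and 25 in Auts2. Bach2 also held 1 KO-only region. In the KO-only direction, Cox10 and Rin3 held 3 regions each. Listed next, with 2 each, were Arhgef3, Boc, Cacna1s, Csgalnact1, Dennd5b, Nr6a1, Runx1t1 and Sh3pxd2a. Csgalnact1, Dennd5b and Runx1t1 also held 1 wild-type-only region each. The genes named in this direction held few regions of any class, from 3 in Boc to 8 in Sh3pxd2a. Nr6a1 is a nuclear receptor gene known to repress Pou5f1 as ES cells differentiate, Boc encodes a Hedgehog co-receptor and Cacna1s a calcium channel subunit of muscle.

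At a gene end, a KO-only region was found for 153 of 21887 protein-coding genes (0.699%) and a wild-type-only region for 920 (4.20%), with 7 genes in both. Among 446 genes of 23 lists of lineage markers, signalling pathways and control genes, 8 had a KO-only region (1.79%) and 31 a wild-type-only region (6.95%). The listed genes carry H3K4me1 more often to begin with: 48.2% of them had a region in at least 1 list, against 29% of all genes. Of genes with a region, 14.4% of the listed and 14.5% of all genes had a wild-type-only one, and 3.72% and 2.41% a KO-only one. The wild-type-only share of listed genes with a region was near the background. Of the 32 wild-type-only regions at listed genes, 5 were also wild-type-only with equal list lengths, those of Hes3, Bcl9, Gli1, Setd1b and Rspo3. Some listed genes share their region with a neighbour's end, so the region cannot be given to 1 gene: Dtx4 with Mpeg1, Hey1 with LOC115489673, Tubb3 with Mc1r, Hes6 with Per2, Tgfb1 with B9d2, Elavl3 with Prkcsh, Cyp26c1 with Exoc6, Aldh1a3 with Lrrk1, Setd1b with Rhof and Nphs1 with Kirrel2.

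**Figure D4:**
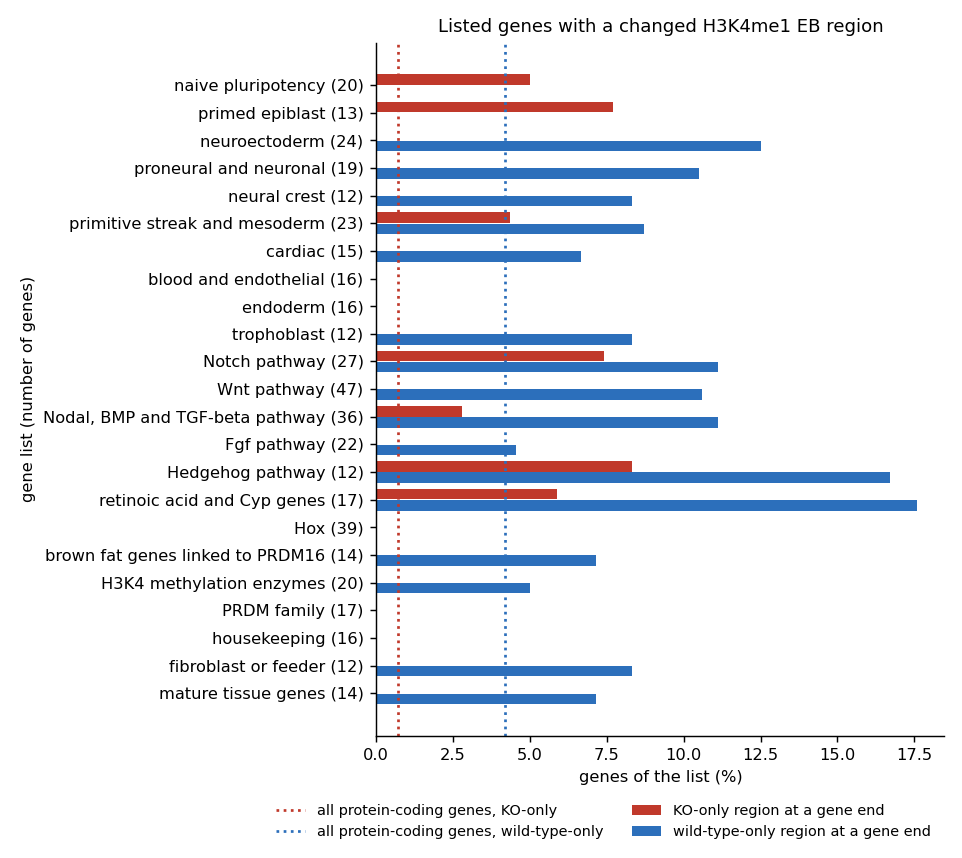
Percentage of genes of each list (horizontal axis, list size in brackets) with a KO-only (red, upper bar) or wild-type-only (blue, lower bar) H3K4me1 EB region within 2500 bp of a gene end. Dotted lines give the same for all protein-coding genes, 0.699% KO-only and 4.20% wild-type-only, and the lists hold 0 to 5 called genes each.

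Of genes with a region, 1 of 9 in the naive pluripotency list and 1 of 8 in the epiblast list had a KO-only one, against 2.41% of all such genes, and none had a wild-type-only one, against 14.5%. Each list thus rests on 1 gene. Pou5f1, whose product Oct4 is required for pluripotency, had a KO-only region over its annotated start (chr17:35500856-35507798). Its scores were 84.5 and 59.4 in KO, with no wild-type peak, and H3K4me2 in EB went the same way, with a peak in both KO lists and in neither wild-type list. No ES list of H3K4me1 had a peak there. Dnmt3b, the de novo DNA methyltransferase gene of the epiblast, had 55 and 58.6 in KO (chr2:153649545-153652896), and was not KO-only with equal list lengths. It was 1 of 13 epiblast genes, as Pou5f1 was 1 of 20 naive pluripotency genes. Nanog and Sall4 had a peak in all 4 lists.

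In the neural lists, 3 of 12 neuroectoderm, 2 of 13 neuronal and 1 of 7 neural crest genes with a region had a wild-type-only one, against 14.5% of all genes with a region, and none had a KO-only one, against 2.41%. With equal list lengths the wild-type-only counts were 0, 1 and 0, and without KO 2 the KO-only counts were 4, 3 and 1, so these lists hold too few calls to be set apart from all genes. Of the 24 neuroectoderm genes listed, Rax, En2 and Sox3, transcription factor genes of the eye field, midbrain and neural progenitors, had wild-type-only regions. Rax had scores of 62.1 and 106 in wild type, En2 had 52.2 and 61.6, and the stronger of 2 regions at Sox3 had 98.2 and 64.2. None of these regions had a KO peak, and all ranked below the middle of at least 1 wild-type list. Of 19 neuronal genes, Tubb3 had 92.1 and 64, and Elavl3, an RNA-binding protein gene of neurons, had 54.7 and 77.6. In the neural crest list, Twist1, a mesenchymal transcription factor gene, had 51.8 and 53.4. En2 and Cyp26c1, both wild-type-only for H3K4me1, had H3K4me2 peaks at the same regions in both KO lists only, the opposite direction. Outside the rule of gene ends, a KO-only region 7903 bp from Sox1, the neural progenitor factor, had 65.2 and 90.8 in KO and went with KO-only H3K4me2 (chr8:12383833-12387615).

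Mesoderm, heart and other lineages had single genes. Kdr, the VEGF receptor of mesoderm and endothelium, had a KO-only region at one end with 73.4 and 59 in KO (chr5:75929804-75932507). It also had a wild-type-only region at the other end with 51.2 and 78.4 in wild type (chr5:75976843-75978562). Tnnt2, cardiac troponin T, had 100 and 67 in wild type and no KO peak, and Tead4, a trophoblast factor gene, had 67.4 and 98.2. Neither was wild-type-only with equal list lengths. No gene of the endoderm list (16 genes), the blood and endothelial list (16), the Hox list (39), the PRDM family (17) or the housekeeping list (16) had a changed region at a gene end. In that order, only 8, 5, 7, 9 and 5 of their genes had any region there. Of all genes with a region, 14.5% had a wild-type-only and 2.41% a KO-only one. These lists are thus too small for an absence to set them apart. Vim of the fibroblast list and Nphs1 of the mature tissue list, kept as checks for other cells, were wild-type-only, with 79.2 and 90.7 and with 70.8 and 61.7 in wild type.

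With all peaks, signalling genes were more often wild-type-only than KO-only, as were all genes. Of genes with a region, 3 of 18 Notch, 5 of 30 Wnt and 2 of 10 Hedgehog genes had a wild-type-only one. For Nodal, BMP and TGF-beta genes it was 4 of 18. The share over all genes with a region was 14.5% wild-type-only and 2.41% KO-only. With equal list lengths, Notch genes had 2 KO-only and 1 wild-type-only member, and Nodal, BMP and TGF-beta genes 1 and 0. Among 27 Notch genes, the repressors Hes1, Hes3 and Hes6 had wild-type-only regions, Hes1 with 66.1 and 70 and Hes6 with 74.3 and 171 in wild type. Dtx4, a ubiquitin ligase gene of the pathway, and Hey1, a Notch target, had KO-only regions with 61 and 50.5 and with 50.1 and 63.3 in KO. Of 47 Wnt genes, none was KO-only and 5 were wild-type-only: the ligands Wnt3a and Wnt2b, the receptor Fzd1, the agonist Rspo3 and Bcl9. That was not so with equal list lengths, when each class held 2 Wnt genes, nor without KO 2, when there were 7 KO-only and 6 wild-type-only Wnt genes. Wnt3a had 74.9 and 63.8 in wild type and no KO peak, and Rspo3 had 81.8 and 153. Among 36 Nodal, BMP and TGF-beta genes, the ligand Tgfb1, the receptor Bmpr2, the BMP antagonist Nog and the BMP target Id2 were wild-type-only, and the inhibitor Smad7 was KO-only with 51 and 66.3 in KO. Of 12 Hedgehog genes, the ligand gene Shh was KO-only with 81.6 and 125 in KO, and the transducer Gli1 was wild-type-only with 91.5 and 84.8 in wild type.

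Of the 23 lists, retinoic acid genes had the highest wild-type-only share, 3 of 17 genes, against 4.20% of all protein-coding genes. Only 9 of the 17 had a region at a gene end, and of all genes with one 14.5% had a wild-type-only region. The list is too small to be set apart from all genes. Aldh1a3, which makes retinoic acid, had 51.5 and 56.9 in wild type, the degrading enzyme gene Cyp26c1 had 54.6 and 55.1, and the receptor gene Rxrg had 55.1 and 60. All 6 scores were close to the lowest score of 50, and none of these regions held with equal list lengths. Dhrs3, a retinaldehyde reductase gene, was KO-only with 69.5 and 52.4 in KO. Frs2 of the Fgf list had 124 and 69 in wild type, and Cidea of the brown fat list had 84 and 68.3. Of 20 H3K4 methylation enzyme genes, 6 had a region at a gene end. Setd1b alone had a changed one, with 83.8 and 82.8 in wild type and no KO peak (chr5:123143862-123147270).

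Prdm16 itself carried 9 H3K4me1 regions in the gene, and peaks of this mark do not check the deletion. One was KO-only, 41744 bp from the nearer gene end, with scores of 114 and 68 in KO (chr4:154357866-154360796). None was wild-type-only or in all 4 lists. The region at a gene end had 77.3 in KO 1 and 73.1 in wild type 1 and no peak in either other list. PRDM16 antibody peaks were rare at H3K4me1 regions of every class. A peak of any EB PRDM16 list lay in 5 of 609 KO-only regions (0.821%), 12 of 3520 wild-type-only regions (0.341%), 44 of 1832 regions in all 4 lists (2.4%) and 134 of all 24731 regions (0.542%). These counts include the KO lists, whose peaks lay in 4 and 1 KO-only regions, against 0 and 3 for wild type. At wild-type-only regions it was 5 and 1 in KO, against 4 and 4 in wild type. At regions in all 4 lists it was 32 and 28, against 30 and 41. A wild-type peak without a KO peak was found at 1 KO-only, 6 wild-type-only and 12 all-4 regions. No region of these classes had PRDM16 peaks in both wild-type EB lists without one in a KO list. In the ES lists of PRDM16, 1 KO-only region did, and no wild-type-only or all-4 region.

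H3K4me2 in EB gave a readout that the choice of regions did not use. Of wild-type-only H3K4me1 regions, 21.1% and 20% carried H3K4me2 in KO, against 26.4% and 43.5% in wild type. Of KO-only regions, 18.2% and 17.4% carried it in KO, against 14.1% and 22% in wild type. Wild type 2 of H3K4me2 comes from another library series and has the longest list, so the shares were set against each other within a library, a ratio chosen after the data were seen. The share at wild-type-only regions over that at KO-only regions was 1.16 and 1.15 in KO, against 1.87 and 1.98 in wild type. The groups did not overlap, with a log2 difference of -0.74, KO minus wild type (two-sided exact permutation test, p = 0.333, the smallest possible). Without the wild type 2 library it was -0.70, and with H3K4me2 lists of equal length -0.70. For regions chosen with equal H3K4me1 list lengths, the ratio was 0.971 and 0.953 in KO, against 1.7 and 1.7 in wild type.

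With all peaks, the ratio of wild-type-only to KO-only shares overlapped between genotypes in ES cells. H3K4me2 gave 1.25 and 1.28 in KO, against 1.16 and 1.26 in wild type. For H3K4me1 it was 1.15 and 1.17 in KO, against 1.16 and 1.2 in wild type. With ES lists of equal length the genotypes did not overlap for either mark. The log2 difference, KO minus wild type, was then 0.18 for H3K4me2 and -0.09 for H3K4me1 (two-sided exact permutation test, p = 0.333 each). KO 2 of H3K4me2 in ES cells comes from another library series. With all peaks, the EB minus ES difference for H3K4me2 was -0.80 on the log2 scale (exact permutation within stage, two-sided, p = 0.111). Against regions in all 4 H3K4me1 lists, the H3K4me2 share of wild-type-only regions was 0.51 and 0.515 in KO EB and 0.59 and 0.649 in wild-type EB. That of KO-only regions was 0.441 and 0.449 in KO EB and 0.315 and 0.329 in wild-type EB, and neither ratio overlapped between genotypes. In ES cells the H3K4me2 share of wild-type-only regions against regions in all 4 lists did not overlap either, at 0.691 and 0.7 in KO, against 0.668 and 0.667 in wild type, in the direction opposite to EB. That of KO-only regions overlapped, at 0.553 and 0.546 in KO, against 0.576 and 0.528 in wild type.

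**Figure D5:**
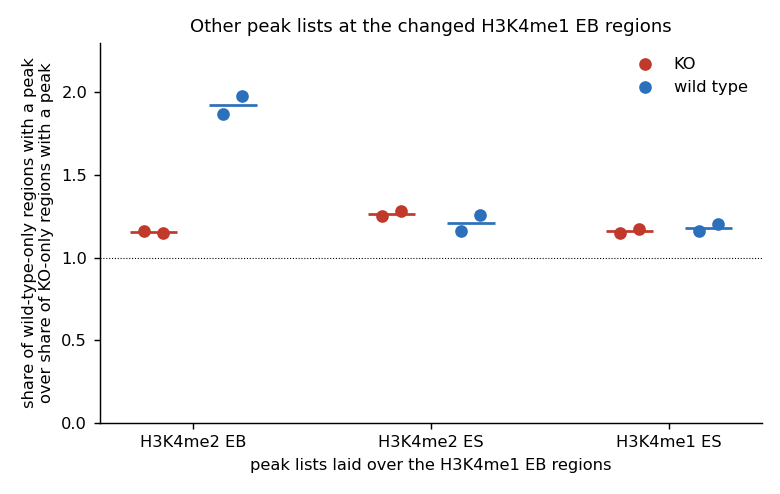
Share of wild-type-only H3K4me1 EB regions with a peak over the share of KO-only regions with a peak (vertical axis) for KO (red, left) and wild-type (blue, right) libraries of 3 sets of lists, with bars at the mean of 2. H3K4me2 in EB lies at 1.16 and 1.15 in KO, against 1.87 and 1.98 in wild type, and the ES lists lie between 1.15 and 1.28.

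Few single regions changed in both marks. H3K4me2 in EB was KO-only at 18 KO-only regions (2.96%), against 1.06% of all regions, and at 32 wild-type-only regions (0.909%). It was wild-type-only at 226 wild-type-only regions (6.42%), against 4.0% of all regions, and at 14 KO-only regions (2.3%). Among regions in all 4 H3K4me1 lists, H3K4me2 was wild-type-only at 8.57%, a higher share than in either changed class. Beside those at Pou5f1 and near Sox1, the strongest of the 18 lay inside Actg2, Nipsnap2, Boc and Col2a1, a cartilage collagen gene with 136 and 61.6 in KO, at ends of Thbs3 and Muc1 and of Fem1al, and 15826 bp from Kiz and 28546 bp from Polg. The strongest of the 226 lay inside Klhl7, with 203 and 255 in wild type, Arl13b, Drd3, Nrcam, Slc6a11, Map4, Fam168a, Mid1 and Ccser1, and 141955 bp from Samd5. Nrcam, a neuronal adhesion gene, had 203 and 196 (chr12:44436358-44441094), and Slc6a11, a GABA transporter gene, had 215 and 186 (chr6:114172168-114176235).

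Most changed regions had no H3K4me1 peak in ES cells. No ES list had a peak at 410 KO-only regions (67.3%, interval 63.5 to 70.9%) and at 2249 wild-type-only regions (63.9%, 62.3 to 65.5%), near the 65.7% of all regions. Regions in all 4 EB lists differed, at 42.8%. ES H3K4me1 was KO-only at 12 and wild-type-only at 9 of the KO-only EB regions, and KO-only at 61 and wild-type-only at 52 of the wild-type-only ones.

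Among the 1832 regions in all 4 lists, the score rank within these regions was higher in both KO lists than in both wild-type lists for 370 (20.2%) and lower in both for 355 (19.4%). The counts in each direction were nearly equal, but ranks within these regions have the same mean in every list. A general gain or loss of signal at shared regions could therefore not show. The shares that a random order of libraries would give were not set beside them. The 5 largest shifts up included Tenm3, a teneurin gene of neural wiring, with ranks of 94.7% and 88.3% in KO, against 4.37% and 9.55% in wild type, and Ripor1, with 95.1% and 89.8% in KO, against 14% and 1.8% in wild type. Both lie on chromosome 8, and the other 3 lay near Spry4, an Fgf inhibitor gene, near Tamm41 and inside Ankdd1b. The 5 largest shifts down included Cyfip2, an actin regulator gene, with 17.2% and 9.47% in KO, against 84.2% and 82.6% in wild type, and a region inside Nsf, with 1.2% and 16.9% in KO, against 92% and 79% in wild type. The other 3 lay at Klhdc8b and Ccdc71, near Nbea and inside Sdk1.

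Base composition was compared over 21006 distinct RefSeq promoter windows of 300 bases, of 17250 genes, with none on chromosome 18. The 54 windows that overlap KO-only regions had a median GC content of 56.8%, the 338 in wild-type-only regions 58% and all windows 56.7%. The ratio of observed to expected CG was 0.441 in KO-only, 0.541 in wild-type-only and 0.574 in all windows, and 0.441 in regions of all 4 lists. On either strand, the GC box GGGCGG was found in 42.6% of KO-only, 52.4% of wild-type-only and 46.6% of all windows. CCAAT was found in 37%, 30.8% and 38.2%, TATAAA in 9.26%, 9.76% and 12.5%, the GATA-type AGATAA in 13%, 8.58% and 9.6%, and the SOX-type ACAAAG in 18.5%, 17.2% and 16.8%, in the same order. The Pou5f1 window printed above holds GGGCGG and CCAAT, that of Tubb3 both, that of Wnt3a GGGCGG, and that of Kcna5 none of the 5. These matches describe letters and not binding sites.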

How the data were processed

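CUT&RUN peak lists of H3K4me1 in day 6 EB were analysed, 2 libraries per genotype, with the H3K4me2, PRDM16 and ES lists laid over them. The authors deposited 1 list per library, with chromosome, start, end, name and a score. The deposited score, whose unit is not stated, orders and filters peaks inside a list. Coordinates are on mm10. The submitters' processing notes name MACS2, HOMER 4.10, deepTools, bedtools, Bowtie2 and SAMtools 1.5 without saying what each did. No source used here gives read depth, control libraries or scaling, so p-values and intervals cover only the spread between libraries or counting error.

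Peaks of autosomes, X and Y that overlapped or abutted were merged. A list has a region when a peak overlaps it by 1 bp. The 1 mitochondrial peak per list was set aside. Genes came from a RefSeq GRCm38.p6 table without strand or exons, so each gene end with 2500 bp either side was used and exons, introns and UTRs were not resolved. Two-sided exact permutation tests ran over libraries, or within stage. Scripts (Python 3.11.15, pandas 2.3.3, scipy 1.17.1) were tested on simulated lists.

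The members, the 23 gene lists and the rules for named regions were chosen with earlier results of these data known. Among the KO-only and among the wild-type-only regions, the text names the 10 regions at gene ends and the 10 away from them with the highest lower score rank, the 10 genes with the most regions, the 10 strongest regions where H3K4me2 goes the same way, the listed genes with a changed region except 1 that is not reported here, Prdm16 and 5 shared regions by rank shift. The 10 widest regions were also drawn up. Same-numbered libraries did not deviate together across genotypes (correlations of -0.01 over presence and -0.02 over scores of shared regions), so numbers were not taken as pairs. Alternatives were score limits, equal list lengths, merging distance, coverage of 50%, windows of 1000 and 10000 bp, every contig, each library left out and the replicate block.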

Additional observations from a re-analysis of the deposited data

How the results depend on the processing

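The peak number difference kept its sign under every alternative run, at -0.90 (log2, KO minus wild type) with all peaks, -0.92 for base pairs covered and -1.67 at a score of 100 or more. With the replicate block it was also -0.90 (p = 0.5, the smallest that 2 pairs allow in an exact test), and it ran from -1.19 to -0.61 with each library left out, the smallest gap being that without KO replicate 2. The block also left the EB minus ES difference at -0.94 and the H3K4me2 ratio at -0.74. The EB minus ES difference ran from -1.23 to -0.65 with each library left out. Region counts moved most. KO-only and wild-type-only regions numbered 347 and 1823 in the higher-scoring 50% of each list, 79 and 1053 at a score of 100 or more, and 868 and 1193 with equal list lengths. The mixed pairs of lists gave 177 to 342, 44 to 149 and 282 to 348 regions, in the same order. Leaving out 1 library makes a class rest on fewer lists and gave 911 to 3624 KO-only and 4204 to 8724 wild-type-only regions, with 3624 and 4204 without KO replicate 2. Genes with a KO-only region numbered 341 within 10000 bp and 405 over the gene span, and those with a wild-type-only region 1595, 1962 and, with equal list lengths, 280. Listed genes numbered 4 KO-only within 1000 bp and 18 over the gene span, and 52 wild-type-only within 10000 bp, 59 over the span and 8 with equal list lengths. Without 1 library, genes ran from 226 to 912 KO-only and 1155 to 2317 wild-type-only, and listed genes from 10 to 42 and from 43 to 73. The H3K4me2 ratio ran from -0.78 to -0.70 with each of its libraries left out, -0.64 at 50% coverage and -0.82 for regions of equal H3K4me1 list lengths. The H3K4me2 share of KO-only regions, KO minus wild type, was -0.246 percentage points and turned to 3.69 without wild type replicate 2 (which is also the 329-BZ series alone), 3.2 with equal list lengths and 0.164 without KO replicate 2, with -4.19 without wild type replicate 1. Causes were not tested. Of the 46 named KO-only and 67 named wild-type-only regions, 37 and 31 were also called with equal list lengths. Those named for the highest lower score rank were bound to be among them. With 2 libraries per group and unknown depth, no comparison of genotypes within EB could reach a p under 0.333, and none of EB minus ES a p under 0.0556.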
